A study of Oryza sativa with 3 samples.

Results

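Plastocyanin, the Rieske iron-sulphur protein, leaf ferredoxin-NADP reductase and the light-regulated protein LIR1 were followed as messenger RNA in rice leaves. They are encoded in the nucleus by PETE (LOC4339833), petC (LOC4343570), LFNR1 (LOC4339874) and LIR1 (LOC4326442). These 4 genes were chosen with earlier results of these data known. Their probe sets were then taken by annotation alone, as every probe set assigned to exactly 1 gene where that gene was one of the 4. Each gene had 1 such probe set, so the members are 4 of 57194 rice probe sets and 4 of 17905 genes with a probe set of their own. The leaves came from 1 group of Kitaake, a fast-cycling japonica cultivar, raised for 6 weeks in a greenhouse, and its 3 replicates were grown together and hybridised to 1 Affymetrix rice array each. No genotype, treatment or time contrast exists in the series, and the labels used here name neither the hour of harvest nor the number of plants behind a replicate. The comparisons that the design allows are therefore between replicates, and between these genes and the other probe sets. No p-values are given, and differences between replicates may be partly technical.

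In the thylakoid membrane of the chloroplast, electrons taken from water by photosystem II pass through the cytochrome b6f complex to photosystem I and end on NADP. The Rieske protein is the subunit of cytochrome b6f that takes electrons from plastoquinol. Plastocyanin, a small soluble copper protein in the thylakoid lumen, carries them on to photosystem I. On the other side of the membrane, photosystem I reduces ferredoxin, and ferredoxin-NADP reductase uses reduced ferredoxin to make the NADPH spent in carbon fixation. LIR1 is a small chloroplast protein whose messenger RNA is known in rice to rise in light and to follow a daily rhythm. It is known to bind leaf ferredoxin-NADP reductase and to strengthen its attachment to the thylakoid membrane.

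Values are log2 signals per probe set, on which a difference of 1 is a 2-fold difference of signal. The middle of the scale was 5.63, the median of all rice probe sets on each array, and the highest value on any array was 14.78. Background was taken as the 95th percentile of the 64 reporter probe sets of an array, which lay at 5.64, 5.60 and 5.77 in replicates 1, 2 and 3. By that bound all 4 probe sets were above background on every array, as were 47.1% of all rice probe sets. The member nearest to the bound, LFNR1, was still at least 8.21 above it. Signal reflects probe affinity besides transcript level, so the values below place probe sets among probe sets and do not rank the genes by amount of messenger RNA.

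PETE, the plastocyanin gene, had a signal of 14.66 in replicate 1, 14.66 in replicate 2 and 14.66 in replicate 3. Replicates 2 and 3 held the same value, and replicate 1 was lower by 0.007. The mean was 14.66 ± 0.004 (SD, n = 3), which was 0.12 below the highest value of the series. Among all rice probe sets 3 had a higher mean, and among annotated genes only 1 did, LOC4344899, which has no published name in the annotation. On the single arrays PETE stood at place 4, 4 and 5 from the top in replicates 1, 2 and 3.

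The Rieske gene petC had a signal of 14.18 in replicate 1, 14.18 in replicate 2 and 14.16 in replicate 3, with a mean of 14.17 ± 0.009 (SD, n = 3). Here replicates 1 and 2 were equal and replicate 3 was lower by 0.015. A higher mean was found for 48 probe sets, or 22 annotated genes, which put petC above 99.91% of all rice probe sets. Here and below a gene is counted by 1 probe set, with an _x_at or _s_at set used only where the gene has no other. Its place from the top was 48, 40 and 50 on arrays 1, 2 and 3.

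LFNR1, the leaf form of ferredoxin-NADP reductase, had a signal of 14.00 in replicate 1, 13.96 in replicate 2 and 13.98 in replicate 3. The mean was 13.98 ± 0.02 (SD, n = 3). Replicate 1 was the highest and replicate 2 the lowest, with a span of 0.044, or 1.031-fold. A lower mean was found for 99.86% of rice probe sets and a higher one for 81, or 43 annotated genes.

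LIR1 had a signal of 14.54 in replicate 1, 14.57 in replicate 2 and 14.53 in replicate 3, with a mean of 14.55 ± 0.02 (SD, n = 3). Its array order differed from that of LFNR1: replicate 2 was the highest and replicate 3 the lowest. The span of 0.049, or 1.035-fold, was the widest of the members. With 10 probe sets at a higher mean, and 5 annotated genes counted by 1 probe set each, LIR1 stood at place 10, 9 and 13 on arrays 1, 2 and 3. That gene count leaves out RBCS at 14.64, LOC4352868 at 14.61 and ALDP at 14.56, which were brighter than LIR1 only by an _x_at probe set. A further probe set is annotated to 3 genes, of which the LIR1 locus is one, and was therefore not a member. It read 4.63 on each array, below the background bound, and no gene is named from it.

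**Figure D1:**
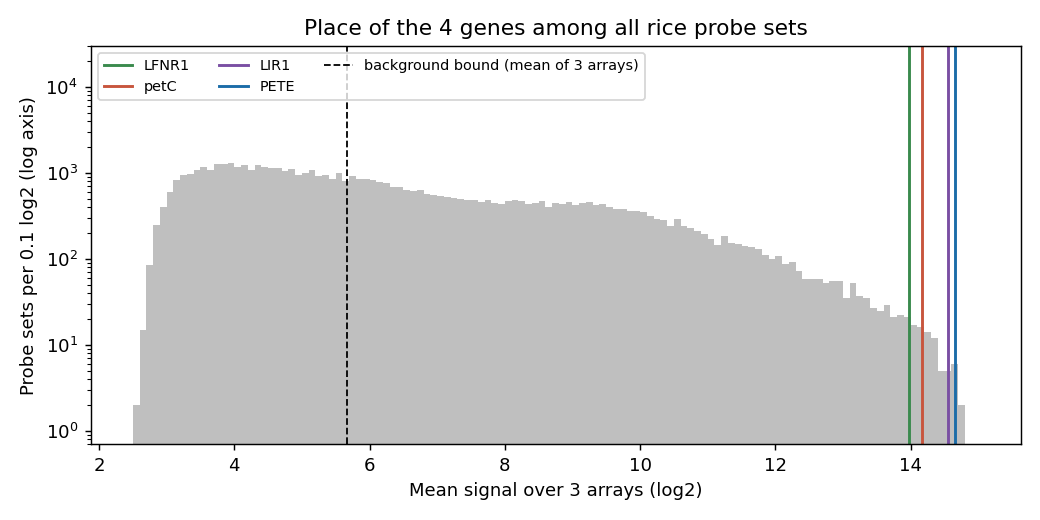
Number of rice probe sets (log axis) by mean log2 signal over 3 arrays, with the means of LFNR1, petC, LIR1 and PETE as coloured lines and the mean background bound dashed. The coloured lines lie between 13.98 and 14.66, at the bright end of the 57194 probe sets.

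The signals lay close to the top of the scale, where few probe sets are found. A mean of at least 13 was reached by 381 probe sets (0.666%), and a mean of at least 14 by 77 (0.135%), among them PETE, LIR1 and petC. The 4 spans over the arrays were 0.007, 0.015, 0.044 and 0.049, so every member stayed within 0.05 as deposited. After quantile normalization again the spans were 0.017 for PETE, 0.060 for petC, 0.056 for LFNR1 and 0.072 for LIR1, so only PETE then stayed within that limit. Of the 381 probe sets with a mean of at least 13, 33.6% stayed within the same limit as deposited. So did 41.6% of the 77 with a mean of at least 14, and 35.0% of all rice probe sets. The median span was 0.09 for the 381 and 0.06 for the 77. Narrow spans were thus common at this brightness. Of the 381, 89.2% had a span at least as wide as that of PETE, 86.6% as that of petC, 69.6% as that of LFNR1 and 67.2% as that of LIR1.

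Exact ties between arrays occurred in PETE and petC and not in LFNR1 or LIR1. Among the 381 bright probe sets 17.8% had the same value on a pair of arrays, 7.1% were tied throughout and 75.1% had 3 different values. The summarising step of RMA is known to return such ties when arrays are few, so an SD near 0 does not measure the error of PETE or petC.

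**Figure D2:**
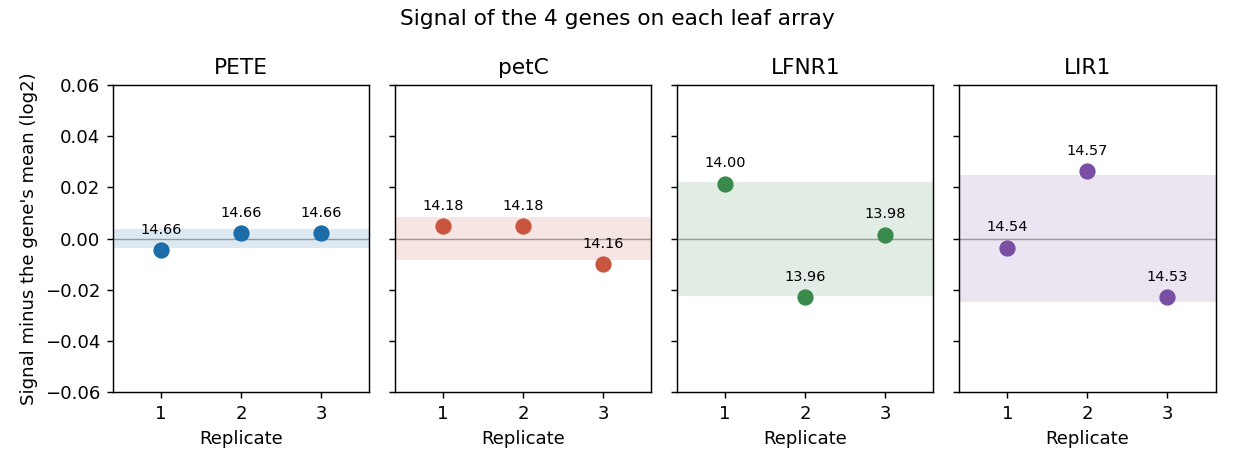
Signal of each gene on each array minus the gene's mean (log2), with the signal itself printed at each point and a shaded band of 1 SD on either side of the mean (n = 3). PETE and petC stay within 0.015 over the arrays, LFNR1 is lowest in replicate 2 and LIR1 is highest there.

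Controls give a scale for these small differences. The cre transcript is a control added at a fixed amount before hybridisation. Its 6 probe sets lay between 13.03 and 13.93, all below the lowest member value, 13.96. Their spans ran over 0.003 to 0.121 with a median of 0.072, so each member varied by less than that median in the values as deposited. Probe sets of rice ubiquitin (3, between 13.88 and 14.09) had spans of at most 0.01, narrower than those of petC, LFNR1 and LIR1. The poly-A spikes, added before labelling and dimmer at 4.85 to 11.41, deviated from their means by a median of -0.06, 0.19 and -0.12 in replicates 1, 2 and 3. LIR1 had the same highest and lowest array as these medians, as did petC with replicate 1 tied to replicate 2, and the part of labelling in their values was not tested. Not all controls shared that order. The brightest spike probe set was lowest in replicate 1, at 11.09, 11.41 and 11.14. So were the median deviations of cre, at -0.04, 0.03 and 0, and of rice gapdh, at -0.04, 0.03 and 0.01. The 3' minus 5' difference of the rice gapdh probe sets, a sign of RNA integrity, was 1.44, 1.43 and 1.45.

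**Figure D3:**
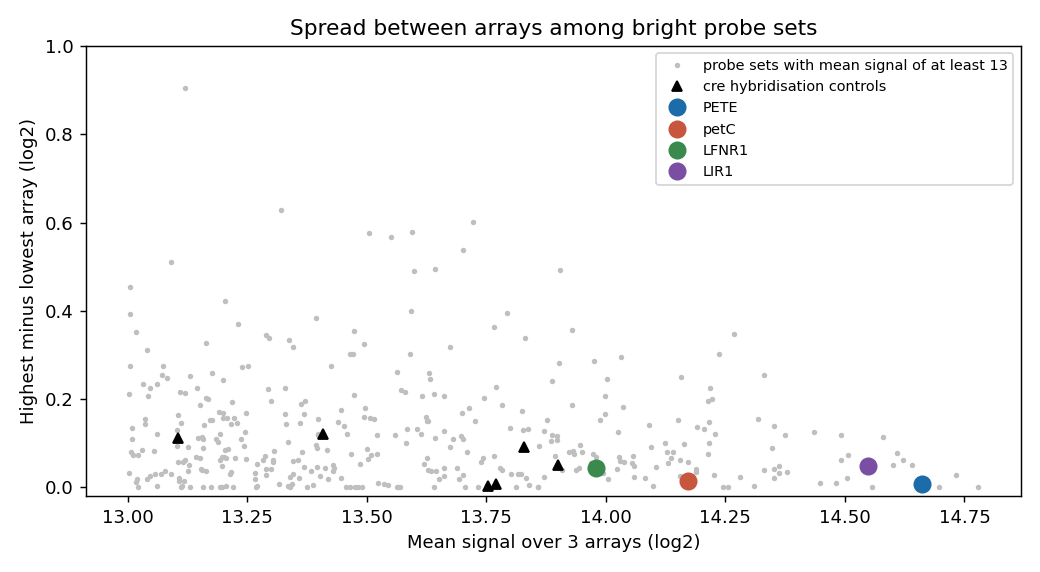
Highest minus lowest array (log2) against mean signal over 3 arrays (log2) for the 381 rice probe sets with a mean of at least 13 (grey), the 6 cre hybridisation controls (triangles) and the 4 genes (coloured). The genes lie at spans of 0.007 to 0.049, low on a cloud that reaches 0.91.

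In the values as deposited the 4 genes did not share an order of the replicates. PETE was highest in replicates 2 and 3, petC in replicates 1 and 2, LFNR1 in replicate 1 and LIR1 in replicate 2. Replicate 3 held the lowest value of petC and LIR1, replicate 1 that of PETE and replicate 2 that of LFNR1. The pair known to bind each other as proteins had the widest span of the 6 pairwise differences as deposited: LFNR1 minus LIR1 was -0.54, -0.62 and -0.54 in replicates 1, 2 and 3, a span of 0.074. PETE minus petC, for plastocyanin and a subunit of the complex that reduces it, was 0.48, 0.49 and 0.50, a span of 0.021. Between single arrays the members differed by -0.044 to 0.03 for replicate 2 minus 1, by -0.02 to 0.007 for 3 minus 1 and by -0.049 to 0.025 for 3 minus 2. The SD of the same differences over the 381 bright probe sets was 0.14, 0.13 and 0.12, larger than any member's difference.

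Quantile normalization repeated on the deposited values changed the array order of PETE and petC and left that of LFNR1 and LIR1. PETE was then equal in replicates 1 and 2 and lowest in replicate 3, with a span of 0.017. For petC the values became 14.17, 14.22 and 14.16, with replicate 2 the highest. Replicate 3 was then the lowest for PETE, petC and LIR1, and replicate 2 their highest or tied for the highest. The order of replicates in PETE and petC thus depends on the processing, while replicate 2 was the lowest for LFNR1 and the highest for LIR1 both ways.

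No gene was named as having a pattern like a member, because the rule asked for a span of at least 0.1 and each member was flatter. Of the 2459 genes with a published name, 1064 lay within a distance of 0.1 from PETE, 1109 from petC, 1021 from LFNR1 and 1145 from LIR1. The distance is Euclidean, between log2 values centred on each gene's mean, over 3 arrays. Between 41.5% and 46.6% of named genes were therefore as near to a member as this limit asks.

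Genes for comparison were taken from 4 lists of names for carriers and reductases, membrane anchors and cyclic flow, ferredoxin-dependent enzymes, and photosystem subunits. The lists matched 13 genes, of which 12 had a probe set, the 4 members included. A further 2 matches, where PC and GLU1 are synonyms of a chitinase and an endoglucanase, were set aside by name. All 12 were above background on every array, against 74.3% of the 17905 annotated genes. Like the members, the lists were chosen with earlier results of these data known. The 8 listed genes that are not members had a median signal of 11.98 and a median span of 0.15. Over all annotated genes these were 8.11 and 0.16. Among rice probe sets of like signal, the median span was 0.13 at a mean of 10 to 13 and 0.06 at a mean of at least 14. The carrier list held only the members, whose spans are given above.

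Among photosystem subunits, OEE3 of the oxygen-evolving complex had 14.23, 14.39 and 14.33 in replicates 1, 2 and 3, and PSAH, a small subunit of photosystem I, had 14.03, 14.17 and 14.07. Both were lowest in replicate 1 and highest in replicate 2, with spans of 0.16 and 0.14, wider than that of any member. PSAG, another photosystem I subunit, had 11.62, 11.46 and 11.33 by its brighter probe set and 6.62 on each array by the other, so its probe sets disagreed in level. PSB28, a photosystem II protein named after its values were seen, had 12.13, 12.08 and 12.11, the same array order as LFNR1 and a span of 0.05.

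Among enzymes that draw on ferredoxin, Fd-GOGAT, the glutamate synthase of ammonium assimilation, had 13.65, 13.54 and 13.69. By this probe set it was lowest in replicate 2, as LFNR1 was, with a span of 0.15. Its 3 probe sets had means of 7.21, 12.91 and 13.63, so the level depends on the probe set. The array order does too, since the dimmest of the 3 was lowest in replicate 3, at 7.32, 7.21 and 7.09. SE5, the haem oxygenase of phytochrome chromophore synthesis, had 11.94, 11.89 and 11.75. NTRC, also named after its values were seen and on the same list although it is a thioredoxin reductase that draws on NADPH, had 11.27, 11.22 and 11.35. In the list of anchors and cyclic flow only ndhM was matched, a subunit of the chloroplast NDH complex, with 11.57, 11.56 and 11.49. An _x_at probe set of a gene whose synonym is ferredoxin (LOC4344439) had 14.38, 14.36 and 14.39. This gene was named after its values were seen and is outside the lists.

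**Figure D4:**
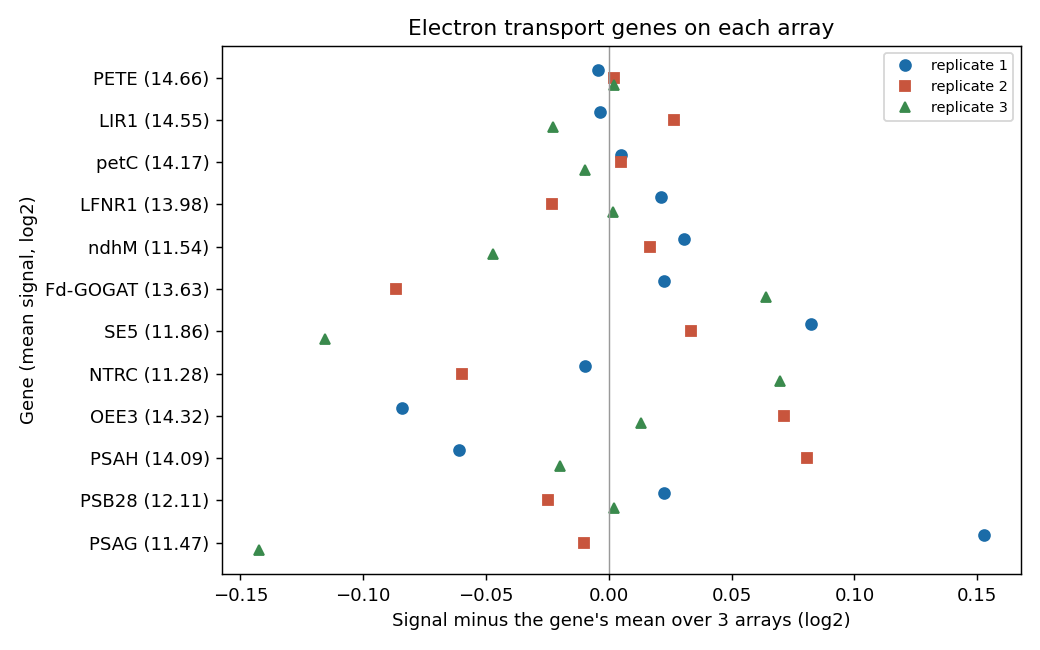
Signal on each array minus the gene's mean over 3 arrays (log2) for the 12 electron transport genes, grouped by list, with the mean signal after each name and a marker for each replicate. The 4 genes in the upper rows stay within 0.05 over the arrays as deposited, as does PSB28. Of the other listed genes ndhM spans 0.08, NTRC 0.13 and the rest 0.14 to 0.30.

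The tissue label was checked against marker genes. All 5 leaf markers with a probe set were above background, with means of 13.38 to 14.50 by the probe set used, among them the antenna gene LHCP (LOC4333359) at 14.49, 14.50 and 14.51. The level depends on the probe set for GLO1, at 13.38 but 11.02 over its 2 probe sets, and GLN2, at 13.66 but 11.52 over 2. It did so little for CAB2R, at 14.10 and 14.22 over 2, and RCAA1, at 14.19 and 14.11 over 4. Both anther markers with a probe set, TDR and RTS, were below background, with means of 4.75 and 4.60. The meristem gene OSH1 was at 3.25 and OsWOX4 at 6.10, just above the bound. Of 3 root markers 2 were above background, with Lsi1 at 9.10 and IRT1 at 7.96. Both seed storage genes were too, with GLB at 9.96 and GLUA-2 at 9.46, or 7.94 over the 2 probe sets of GLUA-2. The part of these markers in the members' values was not tested.

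In the gene order of the RefSeq assembly ASM3414082v1, the 4 genes lie on 3 chromosomes. PETE and LFNR1 share one, with 45 annotated genes between them, 41 of these protein-coding. The nearest coding genes with a probe set were not at the bright end of the scale on either side of any member. Beside PETE their means were at 9.47 and 7.72, beside petC at 6.39 and 8.85, and beside LIR1 at 7.46 and 7.04. Beside LFNR1 one neighbour was at 6.89 and the other, at 3.39, was below background.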

How the data were processed

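Total RNA of 3 leaf samples was labelled with biotin and hybridised to Affymetrix rice arrays, per the labels' protocols. The authors deposited 1 log2 signal for each probe set and array, made with RMA per the submitters' processing notes. For RMA, version and settings were not given in the sources used here. Of 57381 probe sets, 187 controls and reporters were kept apart from the 57194 analysed. The platform annotation gave 1 gene for 22436 probe sets, several for 95 and none here for 34663. Its 17905 genes all matched the RefSeq table of ASM3414082v1 by identifier. For a gene with several probe sets, one whose suffix is neither _x_at nor _s_at was used, then the brightest. Named genes are the members, the markers and, per list, the 2 brightest and the 2 widest in span. PSB28 and NTRC fall outside that rule and were named after their values were seen. Members and lists were chosen with earlier results of these data known. Python 3.11.15 with numpy 2.4.6, pandas 2.3.3 and matplotlib 3.10.9 was used. Spans, quantile normalization and centring were checked on simulated data with known answers. Values were called equal within 1e-09. With 1 group no test between groups was made. The number of arrays, 3, limits the precision. Alternatives were another normalization, centring, probe set rule, background bound and distance, and leaving out each replicate.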

Additional observations from a re-analysis of the deposited data

How the results depend on the processing

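No paired analysis was possible because the series holds 1 group. The members and the electron transport lists kept 4 and 12 above background under every bound tried and after quantile normalization again. They also did so without any replicate, where by construction the counts cannot fall. Centring on the median and the rules for choosing a probe set left each signal and span as it was, since the medians were equal and each gene has 1 probe set. Quantile normalization again gave PETE a signal of 14.656 and a span of 0.0169, and petC 14.1832 and 0.0601. The signals and spans of LFNR1 and LIR1 moved by less than their SD, with spans of 0.0557 and 0.0722, so that 3 of the 4 members then passed 0.05. Leaving out 1 replicate gave signals of 14.6593 to 14.6626 for PETE, 14.1689 to 14.1763 for petC, 13.9685 to 13.9907 for LFNR1 and 14.535 to 14.5597 for LIR1. The spans, which by construction cannot widen when a replicate is left out, were 0.0000 to 0.0067 for PETE, lowest without replicate 1. For petC they were 0.0000 to 0.0148, lowest without replicate 3. They were 0.0198 to 0.0444 for LFNR1 and 0.0193 to 0.0493 for LIR1, both lowest without replicate 2. At a distance of at most 0.05, by construction fewer genes were like a member: 655 for PETE, 686 for petC, 590 for LFNR1 and 674 for LIR1. Signals near the top of the scale may be compressed, which was not tested.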
